A study of Mus musculus with 6 samples.

Results

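The 44 genes described here act at the end of the cell cycle: cyclins, mitotic kinases, and spindle, kinetochore and cytokinesis genes. They were chosen by symbol from the 22332 symbols of a table of estimated counts, by their known role, with a rule that uses no measured value of any gene. All 44 were in the table and all 44 passed the filter on low counts. The RNA came from CGR8 cells, a line of mouse embryonic stem cells. The cells grew on gelatin in DMEM with 10% serum (FBS) and added LIF, the cytokine that keeps such cells undifferentiated. The comparison is between 3 libraries from cells transfected with a pool of non-targeting siRNAs (siCtrl) and 3 from cells transfected with an siRNA pool against Rsl24d1 (siRSL24D1). All 6 were collected 48 hours after transfection, all come from 1 cell line, and no untransfected cells were analysed here. The protein made from Rsl24d1 helps to assemble large ribosomal subunits, and the study asks what its depletion does to stem cells.

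As background, entry into mitosis is driven by the kinase Cdk1 bound to a B-type cyclin. The kinase Wee1 holds this complex inactive and Cdc25 phosphatases release it. A checkpoint at the kinetochores, where chromosomes meet spindle microtubules, then delays anaphase until every chromosome is attached. Once it is satisfied, the anaphase-promoting complex, a ubiquitin ligase, marks cyclin B and securin for destruction, which ends mitosis and frees separase to cut cohesin. Transcripts of many of these genes accumulate in G2 through promoter elements called CHR (cell cycle genes homology region) and CCAAT boxes. The first is bound by the MuvB complex with B-Myb and Foxm1, or with p107, p130 and E2F4 in resting cells. Mouse embryonic stem cells divide fast, with a short G1 phase, so a large part of a culture is in S, G2 or M phase at any time.

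Library totals lay between 33045351 and 34132726 estimated counts in siCtrl and between 30943635 and 35214000 in siRSL24D1. Rsl24d1 itself was at 99.4, 103 and 97.9 CPM (counts relative to library size, scaled between libraries by TMM) in siCtrl and at 53.8, 55.6 and 52.1 CPM in siRSL24D1. Within siCtrl, library 3 stood apart from the rest: a chi-square statistic over genes, per degree of freedom, was 17.8 and 13.5 between it and libraries 1 and 2, against 2.62 between those 2. Within siRSL24D1, library 2 stood apart in the same way, at 11.6 and 14.2 against libraries 1 and 3, with 4 between those 2. Without siRSL24D1 2, 29 of the 44 genes fell. For the 44 genes and the counts over lists of other genes, results that turn on 1 library are given with and without it. Single genes outside the 44, other than Rsl24d1, and the cell type markers were not checked in this way. The labels do not say how far the libraries of a group were separate beyond calling them independent triplicates, so a p-value here measures the spread among these libraries.

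Most mitotic genes fell after the Rsl24d1 siRNA and none rose. Of 44 tested, 31 (70.5%) fell and 0 rose (edgeR quasi-likelihood test, Benjamini-Hochberg adjusted p under 0.05 over all 15084 genes tested). Over all genes 20.0% fell and 21.2% rose by the same test. At an unadjusted p under 0.05, 0 members were higher, and DESeq2 and limma-voom called 0 higher as well. The median log2 fold change of the 44 was -0.24, against 0.015 over all genes, and 43 of the 44 had an estimate below 0. For 34 of the 44 (77.3%), all 3 siRSL24D1 libraries lay below all 3 siCtrl libraries, which held for 26.2% of all genes. The falls were small: the estimates ran from -0.63 for Aurkb to 0.07 for Wee1 on the log2 scale, and no member fell by 1 log2 unit. Since these are bulk libraries, fewer cells in G2 or mitosis and less of each RNA per cell cannot be told apart.

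Each siRSL24D1 library showed this on its own. The median of the 44 genes, as log2 (CPM + 0.5) relative to the siCtrl mean of each gene, was 0.01, 0.02 and -0.04 in siCtrl 1 to 3. In siRSL24D1 1 to 3 it was -0.23, -0.23 and -0.27, while the median of all genes tested was between 0.0078 and 0.017 there. Between 41 and 42 of the 44 genes were below their siCtrl mean in a siRSL24D1 library. By the same count it was 13, 8 and 34 genes in siCtrl 1 to 3, and the share over all genes was not counted. The 44 genes together took 0.942% to 0.965% of all estimated counts in siCtrl and 0.758% to 0.789% in siRSL24D1, and those ranges do not overlap. Abundant genes weigh most in this sum, above all Top2a, with 67618 estimated counts in siCtrl 1 and 45373 in siRSL24D1 1. Of the controls, siCtrl 3 had the lowest median. Without it 34 members fell and the median fold change was -0.27 on the log2 scale. The standard deviation between replicates of a group was 0.05 log2 units for the median member.

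**Figure D1:**
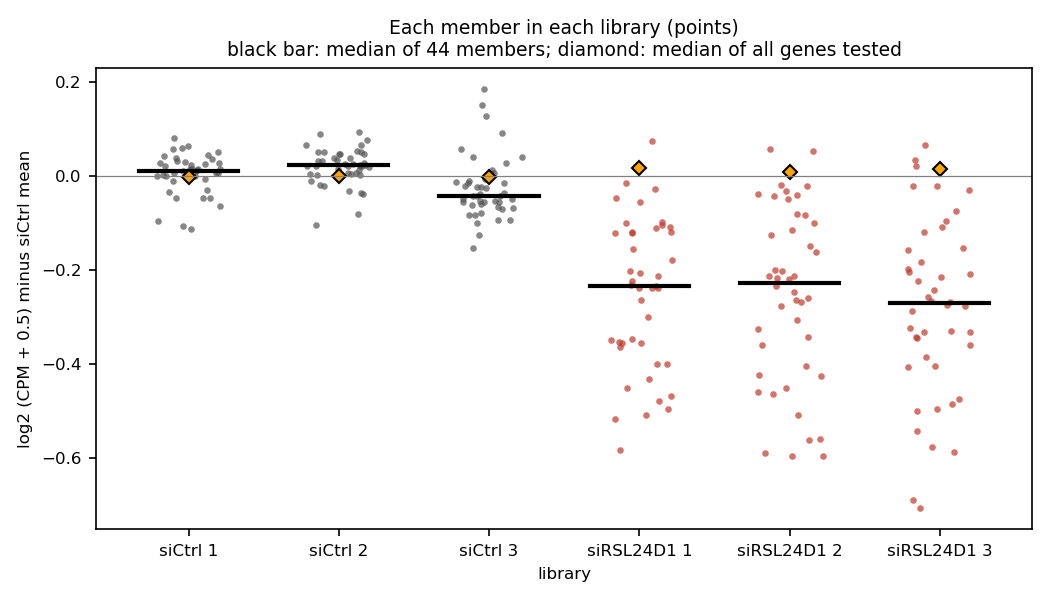
Level of the 44 mitosis and G2/M genes in each library, as log2 (CPM + 0.5) minus the gene's siCtrl mean (vertical axis), with 1 point per gene, a black bar at the median of the 44 and a diamond at the median of all genes tested. The siRSL24D1 medians sit between -0.27 and -0.23 and the siCtrl medians between -0.04 and 0.02.

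**Figure D2:**
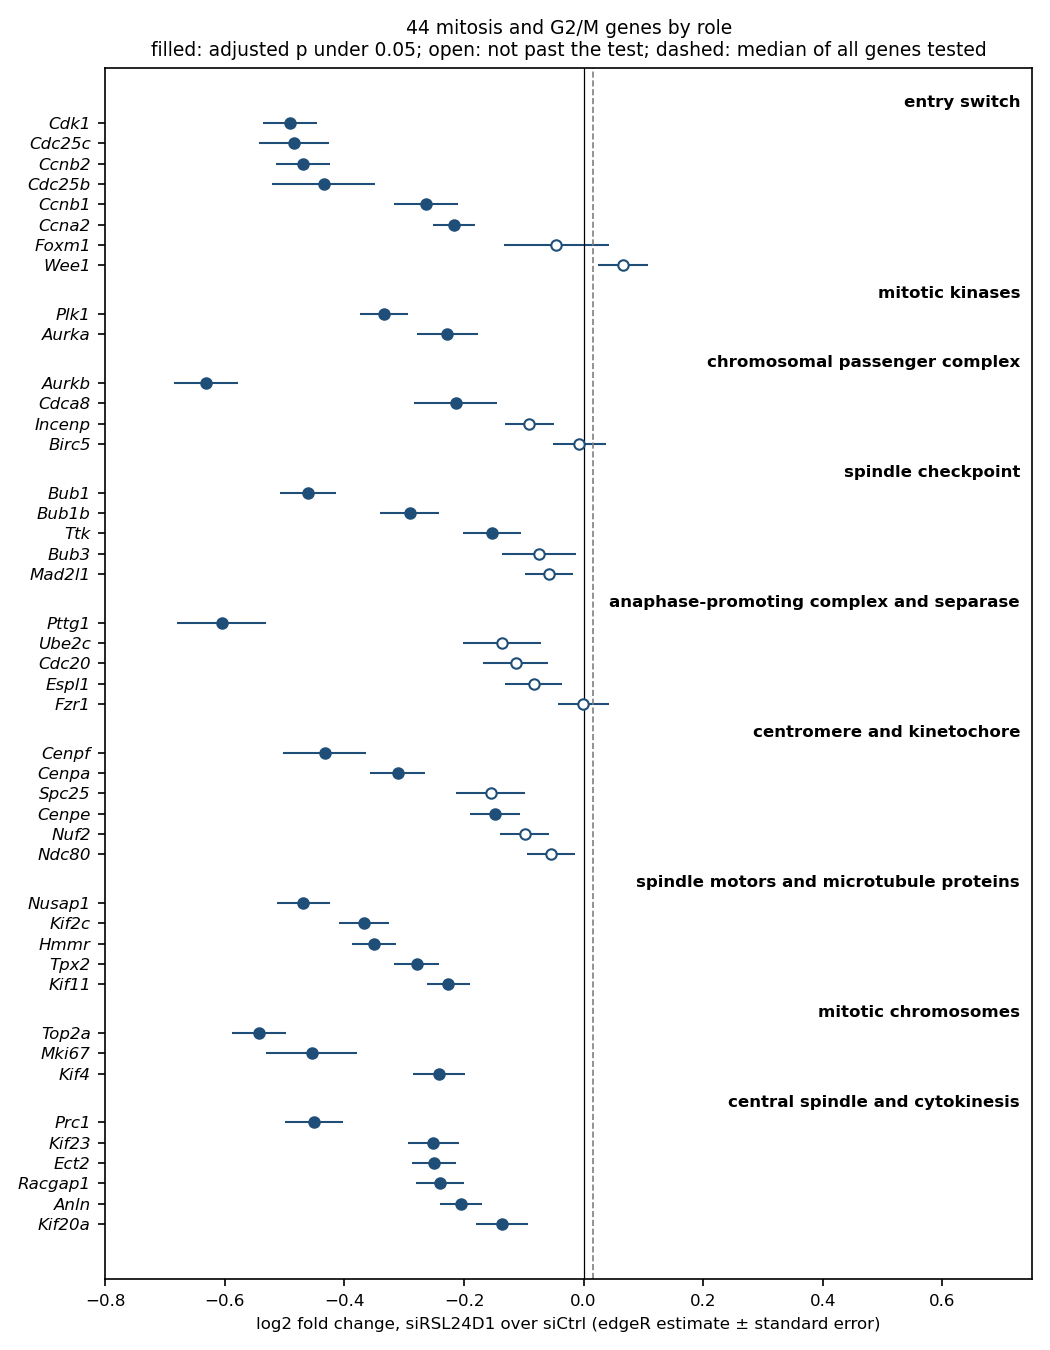
Log2 fold change of each member, siRSL24D1 over siCtrl, with its standard error (horizontal axis), grouped by role. Filled points passed the test, open points did not, and the dashed line is the median of all genes tested; all 31 filled points lie left of 0.

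The counts by role from here on stand beside 20.0% lower and 21.2% higher over all genes. Of the 8 genes of the switch into mitosis, 6 fell (75%) and 0 rose. Cdk1 (chromosome 10, 69335146 to 69352938, minus strand, GRCm38), the kinase at its centre, was at 241, 248 and 229.9 CPM in siCtrl and 173, 174 and 164 CPM in siRSL24D1. The groups were well apart, and its mean was 0.712 of the siCtrl mean (log2 fold change -0.49, standard error 0.045, adjusted p = 0.00013). Ccnb1, the main mitotic cyclin, was at 496, 494 and 447 CPM in siCtrl, with siCtrl 3 the lowest, and at 405, 411 and 380.2 CPM in siRSL24D1 (log2 fold change -0.26, standard error 0.054, adjusted p = 0.0056). The other B-type cyclin, Ccnb2, fell from 142 ± 5.95 to 103 ± 2.81 CPM (SD, n = 3 each; log2 fold change -0.47). Ccna2, the cyclin of S and G2 phase, fell by 0.22 on the log2 scale. Both phosphatases that activate Cdk1 fell, with log2 fold changes of -0.48 for Cdc25c and -0.43 for Cdc25b.

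Wee1, the kinase that restrains Cdk1, went the other way without passing the test. It was at 55.8, 57.8 and 59.3 CPM in siCtrl and 60.7, 60.0 and 60.3 CPM in siRSL24D1. All 3 siRSL24D1 libraries were above all 3 controls by a small margin (log2 fold change 0.07, standard error 0.042, adjusted p = 0.237, 95% interval -0.03 to 0.16). Foxm1, a transcription factor of the G2/M programme, was at 44.9, 45.7 and 55.0 CPM in siCtrl and 48.9, 43.2 and 49.1 CPM in siRSL24D1. Its groups overlapped, siCtrl 3 was the highest of the 6, and the estimate of -0.05 (adjusted p = 0.704, 95% interval -0.25 to 0.16) turned to 0.04 without that library and to 0.01 without siRSL24D1 2.

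To show what the promoters of these regulators look like, the 250 bases before the start site are printed 5′ to 3′ for the genes of the switch, kinase and passenger-complex groups whose stretch was at hand and holds the CHR letters TTTGAA or TTTAAA on either strand. Capitals mark those letters and CCAAT, on either strand. The sequences are from RefSeq (GRCm38.p6), ordered by fold change from Cdk1 to Birc5. They lie at chr10:69352913-69353162 (- strand) for Cdk1, chr9:70421555-70421804 (- strand) for Ccnb2, chr7:122159185-122159434 (+ strand) for Plk1, chr13:100786487-100786736 (- strand) for Ccnb1 and chr11:117848987-117849236 (+ strand) for Birc5.
Cdk1: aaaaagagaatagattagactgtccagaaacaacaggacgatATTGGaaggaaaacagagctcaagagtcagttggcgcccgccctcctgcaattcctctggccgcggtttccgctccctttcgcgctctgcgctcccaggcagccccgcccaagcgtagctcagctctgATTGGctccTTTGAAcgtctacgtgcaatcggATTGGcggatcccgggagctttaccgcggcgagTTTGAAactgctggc
Ccnb2: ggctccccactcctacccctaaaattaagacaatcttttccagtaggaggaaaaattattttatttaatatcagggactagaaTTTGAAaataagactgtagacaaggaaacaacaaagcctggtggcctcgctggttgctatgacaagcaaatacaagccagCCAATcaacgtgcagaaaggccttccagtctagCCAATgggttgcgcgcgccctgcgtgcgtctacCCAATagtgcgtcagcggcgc
Plk1: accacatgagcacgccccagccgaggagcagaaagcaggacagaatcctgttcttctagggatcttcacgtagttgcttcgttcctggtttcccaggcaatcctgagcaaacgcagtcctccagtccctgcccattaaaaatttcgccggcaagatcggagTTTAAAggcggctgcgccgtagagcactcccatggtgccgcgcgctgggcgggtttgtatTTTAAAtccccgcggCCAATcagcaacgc
Ccnb1: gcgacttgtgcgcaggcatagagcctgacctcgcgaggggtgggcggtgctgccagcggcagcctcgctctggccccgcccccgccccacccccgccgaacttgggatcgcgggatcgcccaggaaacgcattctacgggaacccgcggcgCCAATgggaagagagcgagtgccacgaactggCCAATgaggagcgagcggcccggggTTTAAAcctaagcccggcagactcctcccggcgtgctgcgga
Birc5: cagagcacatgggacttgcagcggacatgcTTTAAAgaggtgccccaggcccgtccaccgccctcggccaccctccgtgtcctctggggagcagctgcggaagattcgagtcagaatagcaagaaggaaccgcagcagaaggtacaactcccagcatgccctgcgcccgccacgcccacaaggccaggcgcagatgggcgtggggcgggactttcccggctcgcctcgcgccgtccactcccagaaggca

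Among these 5, Birc5 has 0 CCAAT boxes in this window and its CHR letters near the upstream end, while Cdk1 and Ccnb2 have 3 CCAAT boxes each. RefSeq promoters were at hand for 8 of the 14 genes of these groups and for 36 of the 44 members, not for Aurkb, Ccna2, Cdc25c, Foxm1, Incenp, Wee1, Kif20a and Tpx2, 39 promoters in all since some genes have more than 1. CHR letters were found in 19 of the 39 (48.7%), against 25.2% of all 32851 promoters searched over the same length. By form, TTTGAA was in 35.9% of the 39 against 16.0% of all, and TTTAAA, the form in the Plk1, Ccnb1 and Birc5 stretches above, in 15.4% against 12.1%. CCAAT was found in 31 of the 39 (79.5%), against 33.9% of all. Of 17 members with CHR letters 12 fell (median log2 fold change -0.31), and of 19 without them 14 fell (median -0.23). For CCAAT the counts were 22 of 28 with it (median -0.25) and 4 of 8 without it (median -0.15). A match of letters is a description of the sequence and not evidence of a bound site.

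**Figure D3:**
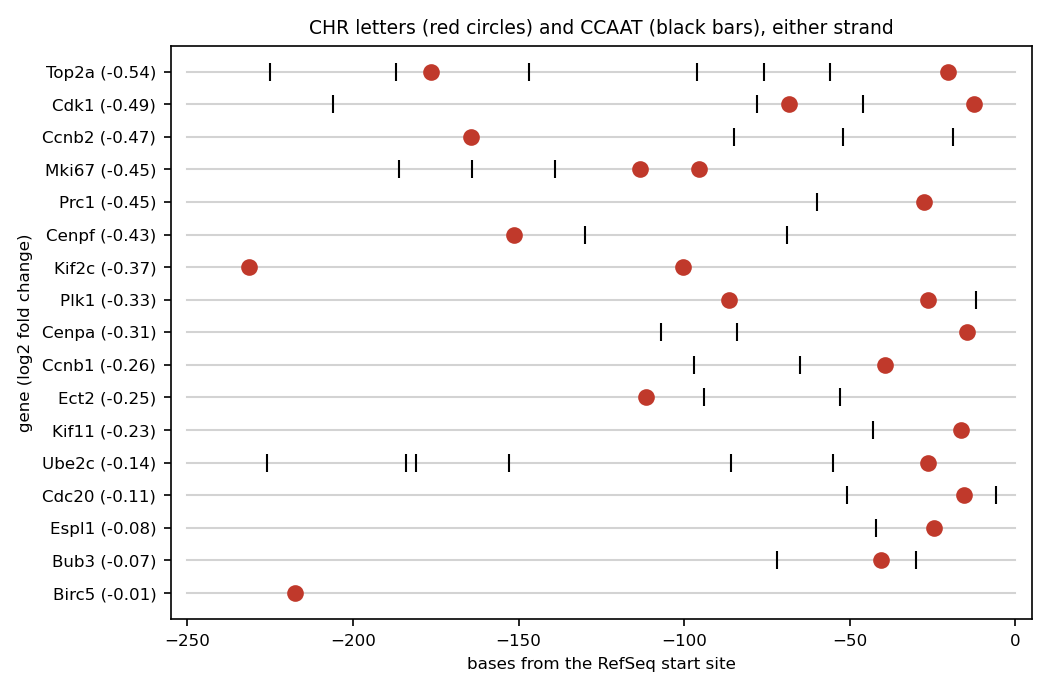
Positions of CHR letters (red circles) and CCAAT (black bars), on either strand, in bases from the RefSeq start site (horizontal axis), for the 17 members with CHR letters in the 250 bases before the start, ordered by log2 fold change. For a gene with more than 1 promoter the first with CHR letters is drawn; genes with small changes, such as Cdc20 and Espl1, hold the letters as well.

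Both kinases that build the spindle fell. Plk1, which matures centrosomes and activates Cdc25, was at 98.1, 99.3 and 93.8 CPM in siCtrl and 76.2, 77.4 and 77.5 CPM in siRSL24D1 (log2 fold change -0.33, standard error 0.04, adjusted p = 0.00046). Aurka, the centrosomal Aurora kinase, was at 138, 148 and 129.7 CPM in siCtrl and 117, 119 and 119 CPM in siRSL24D1. The siRSL24D1 libraries were nearly equal, the controls more spread, and the groups did not overlap (log2 fold change -0.23, standard error 0.051, adjusted p = 0.0084).

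The chromosomal passenger complex, which corrects faulty attachments and later guides cytokinesis, was split between its 4 subunits. Aurkb (chromosome 11, 69045647 to 69051664, plus strand, GRCm38), its kinase, was at 103, 105 and 96.1 CPM in siCtrl and 67.5, 67.0 and 62.0 CPM in siRSL24D1. Its mean in siRSL24D1 was 0.646 of the control mean, the lowest estimate of the 44 (log2 fold change -0.63, standard error 0.053, adjusted p = 9.9e-05). Birc5, which encodes survivin, was at 147, 146 and 139 CPM in siCtrl and 139, 149.6 and 142 CPM in siRSL24D1. Its groups overlapped (adjusted p = 0.919), and the 95% interval of its log2 fold change was -0.11 to 0.10, and the estimate was above 0 with library totals and without siCtrl 1, siRSL24D1 1 or siRSL24D1 3. Incenp, the scaffold, had a log2 fold change of -0.09 (adjusted p = 0.108) although its groups did not overlap. Cdca8, or borealin, fell by 0.21 on the log2 scale, a call that did not hold without siCtrl 1 (adjusted p = 0.1), siCtrl 2 (0.0682), siRSL24D1 1 (0.0975) or siRSL24D1 3 (0.11).

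In the spindle checkpoint, 3 of 5 genes fell (60%): Bub1, Bub1b and Ttk. Bub1, a checkpoint kinase at the kinetochore, was at 247, 248 and 231 CPM in siCtrl and 183, 169.9 and 174 CPM in siRSL24D1, with no overlap (log2 fold change -0.46, standard error 0.047, adjusted p = 0.00022). Its relative Bub1b, which encodes BubR1, fell from 291 ± 16.2 to 238 ± 5.69 CPM (log2 fold change -0.29). Ttk, the kinase that starts checkpoint signalling, fell by 0.15 on the log2 scale and lost its call without siCtrl 1 (adjusted p = 0.124), siCtrl 2 (0.128), siRSL24D1 2 (0.0649) or siRSL24D1 3 (0.125), with library totals (0.0525) and after the GC correction (0.0519). Mad2l1, the inhibitor that the checkpoint loads onto Cdc20, was at 119.8, 125 and 124 CPM in siCtrl and 114, 119.5 and 120.3 CPM in siRSL24D1. Those groups overlapped (log2 fold change -0.06, standard error 0.041, adjusted p = 0.285, 95% interval -0.15 to 0.03). Bub3, the adaptor that brings Bub1 to kinetochores, had a log2 fold change of -0.07 (adjusted p = 0.365). Of all alternatives it passed in the one that leaves out siCtrl 3, at -0.15 (adjusted p = 0.0345).

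Among the genes that end mitosis, 1 of 5 fell (20%, against 20.0% of all genes). This was Pttg1 (chromosome 11, 43420250 to 43426251, minus strand, GRCm38), which encodes securin, the inhibitor of separase. It was at 73.0, 74.3 and 62.7 CPM in siCtrl, where siCtrl 3 was the lowest, and at 48.7, 46.2 and 43.1 CPM in siRSL24D1. The groups were well apart, and the mean was 0.657 of the control mean (log2 fold change -0.61, standard error 0.075, adjusted p = 0.00051). Fzr1, or Cdh1, the co-activator of the anaphase-promoting complex in late mitosis and G1, was at 54.7, 53.6 and 56.5 CPM in siCtrl and 54.4, 54.2 and 56.2 CPM in siRSL24D1. These values interleave, the estimate was -0.0004 on the log2 scale, with a sign above 0 under library totals and 6 other alternatives, and its 95% interval was -0.10 to 0.10. Cdc20, the co-activator that acts at anaphase, was at 248, 242 and 224 CPM in siCtrl and 214, 233 and 213 CPM in siRSL24D1. One siRSL24D1 library lay inside the control range (log2 fold change -0.11, standard error 0.054, adjusted p = 0.125), and without siCtrl 3 the gene passed at -0.17 (adjusted p = 0.022). Ube2c, the ubiquitin-conjugating enzyme of the complex, had a log2 fold change of -0.14 (adjusted p = 0.131), and Espl1, separase itself, one of -0.08 (adjusted p = 0.191). Espl1 passed after a correction for transcript length, at -0.15 (adjusted p = 0.0174).

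At the centromere and kinetochore 3 of 6 genes fell (50%). Cenpf, a large kinetochore protein that accumulates in G2, was at 424, 466 and 489 CPM in siCtrl and 359, 311 and 351 CPM in siRSL24D1. Its spread within each group was wide, with siCtrl 1 the lowest control and siRSL24D1 2 the lowest of all, yet the groups did not overlap (log2 fold change -0.43, standard error 0.07, adjusted p = 0.0018). Cenpa, the centromeric histone H3 variant, fell from 76.0 ± 1.95 to 61.3 ± 2.45 CPM (log2 fold change -0.31). Cenpe, a kinetochore motor, fell by 0.15 on the log2 scale and did not pass when 1 of 3 libraries was left out, siCtrl 2 (adjusted p = 0.091), siRSL24D1 2 (0.0681) or siRSL24D1 3 (0.0515), nor with library totals (0.0531). The 3 members that belong to the Ndc80 complex, which holds the microtubule end, did not pass. A further subunit of this complex, Spc24, is not a member and was counted with the other kinetochore genes. It fell from 62.1 to 53.4 CPM on average, without overlap of the groups (log2 fold change -0.22, adjusted p = 0.0101). Ndc80 was at 113, 114 and 111 CPM in siCtrl and 105, 109 and 111 CPM in siRSL24D1, where siRSL24D1 3 was just above siCtrl 3 (log2 fold change -0.05, standard error 0.04, adjusted p = 0.303, 95% interval -0.15 to 0.04). Its partners Nuf2 (log2 fold change -0.10, adjusted p = 0.086) and Spc25 (-0.16, adjusted p = 0.06) had groups that did not overlap. Nuf2 passed with upper-quartile scaling (adjusted p = 0.0452). Spc25 passed with that scaling (adjusted p = 0.0406) and without siCtrl 3 (0.0278) or siRSL24D1 2 (0.0396).

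All 5 spindle motors and microtubule proteins fell. Nusap1, which bundles microtubules around chromosomes, was at 151, 163 and 149 CPM in siCtrl and 113, 112 and 110.3 CPM in siRSL24D1, a clear gap (log2 fold change -0.47, standard error 0.045, adjusted p = 0.00016). Kif2c, a kinesin that takes microtubule ends apart, fell by 0.37 on the log2 scale, the spindle protein Hmmr by 0.35 and Tpx2, the activator of Aurka on the spindle, by 0.28. Kif11, the motor that pushes spindle poles apart, had the smallest change of the 5. Its values were 256, 259 and 251 CPM in siCtrl and 216, 217 and 221 CPM in siRSL24D1, again without overlap (log2 fold change -0.23, standard error 0.036, adjusted p = 0.0018).

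All 3 genes of mitotic chromosomes fell as well. Top2a (chromosome 11, 98992943 to 99024189, minus strand, GRCm38), the topoisomerase that untangles sister DNA, was at 2045, 2105 and 1964 CPM in siCtrl and 1445, 1383 and 1368 CPM in siRSL24D1. The lowest control was above the highest siRSL24D1 library by several times the spread within a group (log2 fold change -0.54, standard error 0.045, adjusted p = 9.6e-05). Mki67, the proliferation marker that coats mitotic chromosomes, fell from 638 ± 51.8 to 466 ± 38.9 CPM (log2 fold change -0.45). For Mki67, as for Cenpf, siCtrl 3 was the highest control and siRSL24D1 2 the lowest library. Kif4, a chromosome-bound kinesin, was at 113, 115 and 109 CPM in siCtrl and 98.9, 93.6 and 91.8 CPM in siRSL24D1 (log2 fold change -0.24, standard error 0.044, adjusted p = 0.0032).

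Cytokinesis genes were lower in all 6 cases. Prc1, which cross-links the microtubules of the central spindle, was at 231, 239 and 215 CPM in siCtrl and 169, 170.1 and 162 CPM in siRSL24D1 (log2 fold change -0.45, standard error 0.049, adjusted p = 0.00028). The log2 fold change of the central spindle motor Kif23 was -0.25, of its partner Racgap1 -0.24, of Ect2, which activates RhoA at the cell equator, -0.25, and of the ring scaffold Anln -0.21. Kif20a, a kinesin of the cleavage furrow, was at 245, 254 and 235 CPM in siCtrl and 227, 226 and 216 CPM in siRSL24D1. The groups were close but did not overlap (log2 fold change -0.14, standard error 0.044, adjusted p = 0.037). Its call was lost with library totals (adjusted p = 0.0508) and without siCtrl 1 (0.107), siCtrl 2 (0.153), siRSL24D1 1 (0.0638), siRSL24D1 2 (0.0549) or siRSL24D1 3 (0.136). Its exons overlap those of Cdc23 on the opposite strand, and Cdc23 rose (log2 fold change 0.18). In all, 11 of the 44 members overlap an exon of an opposite-strand gene in the table: Ccna2, Cdc20, Cdc25b, Cdc25c, Kif20a, Kif4, Cdca8, Ube2c, Nusap1, Prc1 and Fzr1. The strand setting of the counting is not given in the sources used here, so reads of such pairs may not have been told apart.

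Ratios of opposing genes within a library need no scaling between libraries, so 4 pairs of known opposing or sequential roles were compared (two-sided exact permutation test, in which 3 against 3 libraries cannot give a p below 0.1). The log2 ratio of Cdc25b to Wee1, activator over inhibitor of Cdk1, was -1.76, -1.87 and -1.65 in siCtrl 1 to 3 and -2.37, -2.24 and -2.18 in siRSL24D1 1 to 3. All 3 siRSL24D1 ratios were lower, with a difference of -0.50 (exact p = 0.1, adjusted over the 4 pairs 0.2). Other regulators of Cdk1 are not in this pair. The inhibitory kinase Pkmyt1 had a log2 fold change of -0.45 and the activating Cdc25a one of -0.11, against -0.43 for Cdc25b. The log2 ratio of Espl1 to Pttg1, separase over securin, was 0.64, 0.68 and 0.98 in siCtrl and 1.26, 1.24 and 1.37 in siRSL24D1. All 3 siRSL24D1 ratios were higher, with a difference of 0.52 (exact p = 0.1, adjusted 0.2). For the other two pairs the groups overlapped. The co-activators of the anaphase-promoting complex, Cdc20 over Fzr1, differed by -0.11 (exact p = 0.2, adjusted 0.267), and the cyclins Ccnb1 over Ccna2 by -0.05 (exact p = 0.5, adjusted 0.5). None of the 4 comparisons could pass a threshold of 0.05 in this design.

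**Figure D4:**
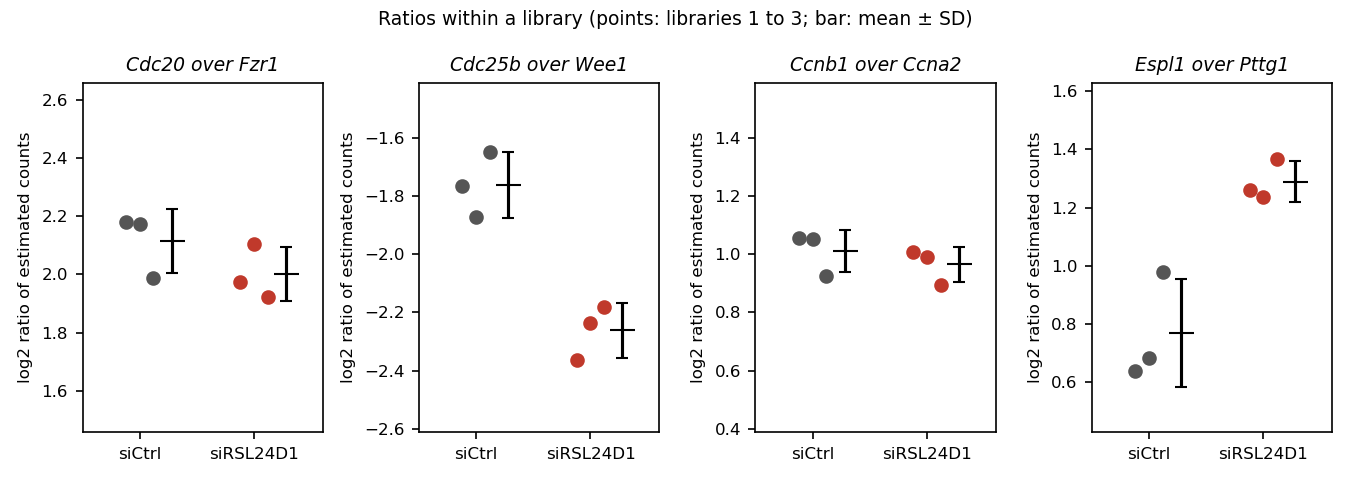
Log2 ratio of estimated counts of 2 genes in the same library (vertical axis, each panel spanning the same range), with 1 point per library and the mean ± SD over 3 libraries beside the points. The Cdc25b over Wee1 ratios of siRSL24D1 all lie below those of siCtrl, the Espl1 over Pttg1 ratios all lie above, and the other two panels overlap.

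Other genes of the same machinery were counted in lists set down beside the 44, and whether any list differs from the 44 was not tested. The values after gene names here and in the next 3 paragraphs are log2 fold changes. Of 23 cohesin and condensin genes, which hold and compact sister chromatids, 13 fell (56.5%, against 20.0% of all genes) and 0 rose by edgeR (median log2 fold change -0.16). At an unadjusted p under 0.05 Stag1, a cohesin subunit, was higher, and 1 gene rose with library totals. The lowest were Sgo2a, a protector of centromeric cohesin, at -0.50 and Ncapd2, a condensin subunit, at -0.45. Of 32 other kinetochore and centromere genes 9 fell (28.1%), with Cenpk lowest at -0.43 (median of the 32 genes -0.06). Another 4 rose (12.5%, against 21.2% of all genes). The 4 were Cenpt, an inner kinetochore protein, at 0.61, Zw10 at 0.21, Cenpo at 0.16 and Zwint at 0.15, and 2 rose without siCtrl 2, siCtrl 3, siRSL24D1 2 or siRSL24D1 3 and with upper-quartile scaling. Of 38 other spindle and centrosome genes 12 fell (31.6%), with Ckap2l lowest at -0.34 (median of the 38 genes -0.10). The 5 that rose (13.2%, against 21.2% of all genes) were the kinesin Kif18b at 0.42, Haus2 at 0.29, Clasp1 at 0.26, Ckap2 at 0.23 and Haus3 at 0.16.

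The subunits and partners of the anaphase-promoting complex moved both ways, in shares near those of all genes (18.8% lower and 25.0% higher, against 20.0% and 21.2%). Of 16 tested, 3 fell, Ube2s at -0.23, the inhibitor Fbxo5 at -0.22 and Anapc11 at -0.22, and 4 rose, Anapc16 at 0.35, Cdc23 at 0.18, Cdc26 at 0.14 and Cdc27 at 0.11 (median -0.02). Without siCtrl 2, 0 fell, and 2 rose without any 1 library other than siCtrl 3. With DESeq2 size factors, upper-quartile scaling, no filter, DESeq2's test or a length or GC correction 2 rose. Of 21 other kinases, phosphatases and partners of entry and exit 6 fell (28.6%), with Pkmyt1, another inhibitory kinase of Cdk1, lowest at -0.45 (median -0.10). The 4 that rose (19.05%) were Cdk7, part of the kinase that activates Cdk1, at 0.24, Haspin at 0.19, Ppp2r2d at 0.15 and Arpp19 at 0.14. Only 1 rose without siCtrl 2 or siRSL24D1 3 and under DESeq2's test, and 2 rose without siCtrl 3 or siRSL24D1 2, with upper-quartile scaling and with no filter.

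Regulators that bind CHR and E2F elements moved both ways, with 4 of 19 lower and 4 higher (21.1% each way, near the shares over all genes; median 0.001). E2f1 was at -0.52, Mybl2, which encodes B-Myb, fell from 229.8 ± 7.18 to 187 ± 7.23 CPM (log2 fold change -0.30), Rbl1 (p107) was at -0.23 and E2f5 at -0.16. Higher were Rb1, the retinoblastoma protein, from 23.0 ± 1.99 to 33.4 ± 3.11 CPM (log2 fold change 0.54), Rbl2 (p130) at 0.38, E2f6 at 0.23 and Tfdp1 at 0.17. The number lower was 2 without siCtrl 1, siCtrl 2, siRSL24D1 2 or siRSL24D1 3 and with library totals. Of 14 arrest and DNA damage checkpoint genes 6 rose (42.9%, against 21.2% of all genes) and 4 fell (28.6%, against 20.0%), with a median of 0.18. The rises ran up to 1.34 for Gadd45g, a low gene that went from 2.86 ± 0.327 to 7.25 ± 1.25 CPM. The more abundant Ccng1, a target of p53, rose from 845 ± 22.1 to 1213 ± 72.2 CPM (log2 fold change 0.52), and the other risers were Sfn at 0.59, Btg2 at 0.53, Cdkn1a, the p21 inhibitor, at 0.41 and Gadd45a at 0.23. Those that fell were Cdkn1b, the p27 inhibitor, at -0.65, Gadd45b at -0.32, the damage kinase Atr at -0.31 and its target Chek1 at -0.17.

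In the preceding phase of the cycle, 15 of 32 G1/S and replication genes fell (46.9%, against 20.0% of all genes and 70.5% of the mitotic genes). The 2 that rose (6.25%, against 21.2% of all genes) were Ccne2 at 0.20 and Tyms at 0.17 (median of the 32 genes -0.14). The lowest was Chaf1b, a chromatin assembly subunit, at -0.43. The number that fell changed whichever library was left out, an omission that also leaves fewer libraries to test. It was 8 without siCtrl 1, 7 without siCtrl 2 and 20 without siCtrl 3. It was 9 without siRSL24D1 1, 11 without siRSL24D1 2 and 8 without siRSL24D1 3. The number that rose was 0 without siCtrl 2 or siRSL24D1 3 and 1 without siCtrl 1, siCtrl 3 or siRSL24D1 1. For the 44 mitotic genes the number that fell stayed between 27 and 34 in the same omissions.

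**Figure D5:**
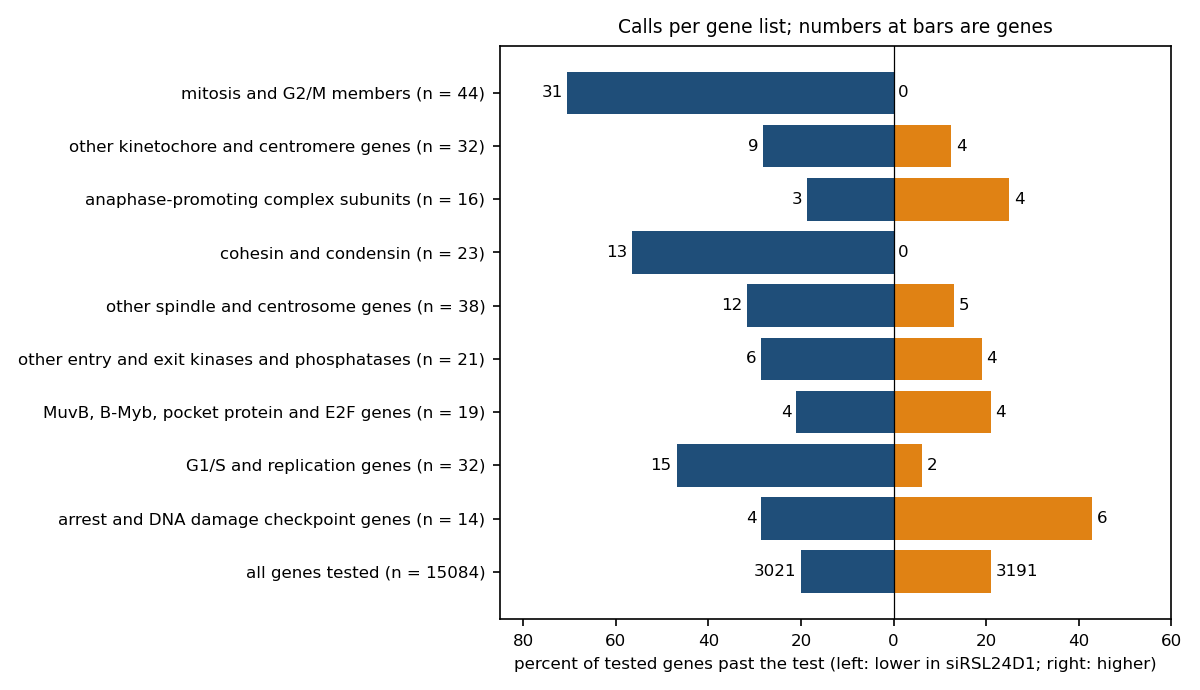
Percent of tested genes of each list that fell (left) or rose (right) in siRSL24D1 at an adjusted p under 0.05 (horizontal axis), with the number of genes at each bar and all genes tested at the bottom. The mitotic members reach 70.5% on the left and 0 on the right, beside 20.0% and 21.2% for all genes.

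The cells carried the markers of their label. All 12 embryonic stem cell markers were detected. Their summed level was 3457 to 3850.0 CPM in siCtrl and lower in siRSL24D1, at 3026 to 3176 CPM. A link between this sum and the mitotic genes was not tested. Of the 12 markers 6 fell (50%, against 20.0% of all genes) and 1, Zfp42, rose (8.3%, against 21.2%). The 2 largest falls in CPM were those of Dppa5a, from 1158 ± 109 to 836 ± 38.0, and Tdgf1, from 668 ± 25.5 to 434 ± 5.32 CPM. The other markers that fell were Fgf4 at -0.55, Nanog at -0.49, Esrrb at -0.17 and Utf1 at -0.16 on the log2 scale. The log2 fold changes of Pou5f1 (0.0012), Lin28a (0.0039), Sox2 (0.08), Klf2 (0.14) and Dppa4 (-0.08) did not pass the test. Fibroblast markers summed to 129 to 162 CPM in siCtrl and 127 to 152 CPM in siRSL24D1, with 2 of 9 tested lower and 2 higher (22.2% each way). On the log2 scale Pdgfrb was at -0.52, Col1a2 at -0.46, Prrx1 at 0.75 and Col3a1 at 0.61. Primitive endoderm markers summed to 40.4 to 43.95 CPM in siCtrl and 37.0 to 41.2 CPM in siRSL24D1, with 2 of 6 tested lower and 2 higher (33.3% each way). Dab2 (-0.43 on the log2 scale) and Pdgfra (-0.20) fell. The low genes Gata4 (0.54, from 1.82 to 2.66 CPM) and Gata6 (0.50, from 1.78 to 2.53 CPM) rose. Lum, a fibroblast marker, and Sox7, a primitive endoderm marker, were too low to test. Mitochondrial transcripts took 2.02% to 2.13% of counts in siCtrl and 2.15% to 2.25% in siRSL24D1. Their part in the fall of the mitotic genes was not tested.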

How the data were processed

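The authors deposited estimated counts per gene symbol, whose totals differ between libraries. STAR 2.7.0f, Salmon 0.14.1 and the build GRCm38 are named per the submitters' processing notes. What each tool did, the annotation, filters and strand setting: not given in the sources used here. TRIzol extraction, depletion of ribosomal RNA and a stranded kit are recorded per the labels' protocols. Of the 44 members 22 had a value that was not whole (tolerance 1e-09) in at least 1 library.

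Tests had been planned for counts; the deposited estimated counts were therefore rounded. Genes were kept by filterByExpr (minimum count 10, minimum total 15; 15084 genes), scaled by TMM and compared with edgeR 4.0.16, quasi-likelihood F test (R 4.3.3), two-sided, without other terms, and p-values were Benjamini-Hochberg adjusted over all genes. Standard errors are the log2 fold change divided by the square root of F. CPM values use the TMM-scaled totals of the genes kept. Coordinates are from GENCODE M21, in which 22304 of 22332 symbols were found, and promoters from RefSeq. Simulated data were used to test the edgeR fit.

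Alternatives were other scalings (DESeq2 size factors, library totals, upper quartile) and filters, DESeq2 1.42.0, limma-voom (limma 3.58.1), loess corrections for transcript length and GC content, the replicate number as a block, an adjusted p under 0.01, and leaving out each library; unrounded values were added after seeing the data. The rule for the members uses no measured value, but members, lists, pairs and naming rules were all chosen with earlier results of these data known. All 44 members are named. Values per library are given for 8 preset genes, Rsl24d1 and the lowest and highest member of each role. Other lists are given by their lowest and highest called gene, or all where 5 or fewer moved one way. The other risers of the arrest list, the cell type markers, Cdc25a and Spc24 were named after their values were seen.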

Additional observations from a re-analysis of the deposited data

How the results depend on the processing

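The number of mitotic genes that fell was 27 to 33 across the alternatives with all 6 libraries, lowest at an adjusted p under 0.01, and 27 to 34 when 1 library was left out. None rose in any of these 20 alternatives, with edgeR, DESeq2 or limma-voom. The median log2 fold change of the 44 genes was -0.27 to -0.22 with all libraries and -0.27 to -0.23 without 1 library, the lowest value being that without siCtrl 3. Of the 31 genes that fell, 27 kept their call in every alternative and 4 (Cdca8, Ttk, Cenpe and Kif20a) lost it in at least 1. Of those that did not pass, 5 (Spc25, Espl1, Bub3, Cdc20 and Nuf2) passed in at least 1. Foxm1, Birc5 and Fzr1 were above 0 in some alternatives and called in none. The cause of these changes was not tested. Without 1 library the differences in log2 ratio were -0.55 to -0.44 for Cdc25b over Wee1, 0.46 to 0.63 for Espl1 over Pttg1, -0.18 to -0.08 for Cdc20 over Fzr1 and -0.09 to -0.01 for Ccnb1 over Ccna2.

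Whether the replicate numbers pair the samples is not settled here. Deviations from the group means of same-numbered libraries correlated at -0.29, 0.24 and 0.32. siCtrl 1 correlated best with siRSL24D1 2, and siCtrl 2 with the library of its own number. The correlations of siCtrl 3 with siRSL24D1 3 (0.3233) and siRSL24D1 1 (0.3185) were nearly equal. Deviations from a mean of 3 libraries depend on one another, so these correlations cannot decide it. With the number as a replicate block 32 mitotic genes fell at a median of -0.24, 33 with a length correction added and 32 with a GC correction added, and 0 rose. Spc25 was the 1 gene that gained a call under the block alone (adjusted p = 0.0249). In that pairing the mean differences of the 4 ratios were the same by construction, each with an exact p of 0.25, the smallest that 3 pairs allow.

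At an adjusted p under 0.01, 6 G1/S genes, 8 cohesin and condensin genes, 1 gene of the anaphase-promoting complex and 2 of the MuvB, B-Myb, pocket protein and E2F list fell, against 15, 13, 3 and 4. The numbers that rose were then 2 for kinetochore genes, 2 for the anaphase-promoting complex, 1 for entry and exit kinases, 2 for the MuvB list and 0 for G1/S genes. The number of G1/S genes that rose was 1 with upper-quartile scaling, DESeq2's test or a GC correction, with or without the block. The lowest estimated count of a member in a library was 370, for Cdc25b; low counts limit Gadd45g, Lum and Sox7 more than the members.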
